A study of Mus musculus with 12 samples.

Results

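The contrast described here sets retinas of cKO mice killed 4 d after tamoxifen (P34) against retinas of cKO mice killed 2 d after tamoxifen (P32), with no control mouse in it. It holds 6 of the 12 libraries of the series, chosen by their labels: 3 from P32 (mice 4, 5 and 6) and 3 from P34 (mice 7, 8 and 9), with 1 mouse per library. All 6 mice carried Crx-CreERT2, which drives a tamoxifen-dependent Cre recombinase in photoreceptors (PRs), and Otx2 flox/flox, on a 129/SV background, and each received a single intraperitoneal injection of tamoxifen at P30. The other 6 libraries were 3 P30 control mice (1, 2 and 3) and 3 cKO mice at P38 (10, 11 and 12). The 2 groups compared shared genotype and treatment and differed in age as well as in days since tamoxifen, so these cannot be told apart. From Xist and Y-linked counts, 1 of 3 P32 mice and 2 of 3 P34 mice were male. The labels name the tissue retina and the ablated cell type photoreceptor. The RNA came from whole retinas, and the study's text counts retinal pigmented epithelium (RPE) as part of them.

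OTX2 is a homeodomain transcription factor that PRs, bipolar cells and the RPE keep expressing in the adult eye. Cre removes an exon that encodes most of its homeodomain. At the front edge of the retina lies the ciliary body, whose epithelium secretes aqueous humor and, in earlier life, much of the vitreous, and the zonule fibers that hold the lens are microfibrils anchored there. Extracellular matrix (ECM) around these tissues is built from fibrillin microfibrils with their fibulins and latent TGF-β binding proteins, from small leucine-rich proteoglycans that bind collagen fibrils, and from collagens, among which types II and IX form the vitreous fibrils.

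Counts on genes came to 31973411, 37267912 and 38947378 in P32 mice 4, 5 and 6 and to 38183235, 40737548 and 29701483 in P34 mice 7, 8 and 9. Values below are CPM, counts of a gene relative to the TMM-scaled total of its library, and 3 counts corresponded to 0.0735 to 0.102 CPM. The library of P32 mouse 4 stood apart. The first principal component of the 6 libraries (55.1% of their variance) placed it at -90.6, P32 mouse 5 at -41.1, P32 mouse 6 at 15.2 and the 3 P34 mice at 37.5 to 41.4. Transcripts of lens crystallins summed to 68350 and 50479 CPM in P32 mice 4 and 5, to 1224 CPM in P32 mouse 6 and to 407, 1153 and 887 CPM in P34 mice 7, 8 and 9. The called genes and the lists that hold them are therefore given with and without P32 mice 4 and 5. Lists that held no call are described in other fits. The fit without mice 4 and 5 has 1 P32 library, that of mouse 6, which is assumed to vary like the libraries of the other groups. It shows where mouse 6 alone lay against the P34 mice and not how P32 mice vary.

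The Otx2 values of the 2 ages overlapped. Counts over the whole gene (ENSMUSG00000021848; chr14:48657677-48673819, minus strand of GRCm38) gave 322, 340.3 and 372 CPM in P32 mice 4, 5 and 6 and 328, 331 and 377 CPM in P34 mice 7, 8 and 9. The log2 fold change of P34 against P32 was 0.003 (standard error 0.11, adjusted p = 0.990), and its sign depended on the settings. Such counts cannot tell deleted alleles from intact ones, and exon reads were not analysed here.

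Between 2 and 4 d after tamoxifen, 7 of 17 genes of the ciliary region, 4 of 14 genes of microfibrils, 4 of 10 small leucine-rich proteoglycan genes and 5 of 42 collagen genes were lower, the called genes of these lists by 2.21-fold (Col9a1) to 44.7-fold (Best2) in their mean CPM, and no gene was called higher by edgeR's test. With only the 6 cKO libraries in the fit the counts of these 4 lists were 1, 2, 1 and 0, and with the length or the lens covariate 2, 2, 1 and 0. Of 18628 genes tested by edgeR's quasi-likelihood test, 45 (0.242%) were lower at P34 at an adjusted p of at most 0.05 with a log2 fold change of -0.5 or lower. None (0%) was higher by the same test, where the lowest adjusted p was 0.0549. At an unadjusted p of at most 0.05, 2482 genes had lower and 2523 had higher values at any fold, and under the fold limit of 0.5 these were 1664 (8.93%) and 1023 (5.49%). The counts at an unadjusted p given below for gene lists keep that fold limit unless any fold is named. DESeq2 called 843 genes lower and 579 higher. All 45 genes had their 3 P34 values below their 3 P32 values, as 2527 (13.6%) of all genes tested did, while 2761 (14.8%) had all P34 values above. In whole retinas, fewer cells of a type and less RNA per cell cannot be told apart.

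The number of genes called depended on single mice. Without P32 mouse 6, 1310 genes were lower and 1416 higher. Without P32 mouse 5 the count of lower genes was 29, and it was 20, 14 and 19 without P34 mouse 7, 8 and 9. Without P32 mice 4 and 5 together, with mouse 6 as the 1 P32 library, it was 12, of which 11 were among the 45: Best2, Fbln1, Ltbp2, Mfap4, Optc, Penk, Rec8, Slc13a4, Slc26a4, Sod3 and Vcan. The other genes of the 45 did not pass without these mice. In 18 alternatives, each of the 45 genes had a lower level at P34 wherever it was tested, which 42 were in the fit of the 6 cKO libraries alone, 41 were under the stricter filter and 45 were in each of the others. Since P34 and P32 values overlapped in none of the 45, leaving out mice or changing a threshold could scarcely alter these signs. The kept signs are therefore no measure of stability. In every alternative 6 genes passed: Fbln1, Optc, Mfap4, Slc26a4, Ltbp2 and Vcan. P32 mouse 6 had the lowest value of the P32 mice in 40 of the 45 genes (88.9%), against 34.4% of all genes tested.

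**Figure D1:**
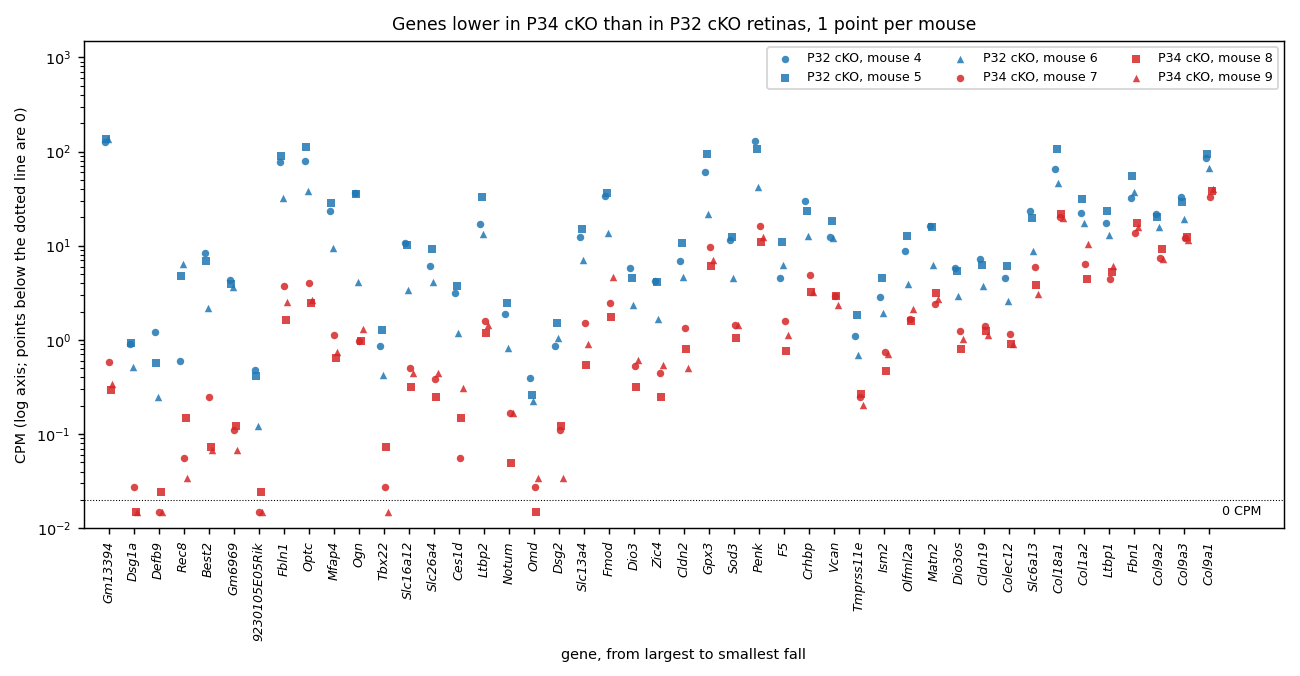
CPM (log axis) of the 45 genes lower at P34 in each P32 mouse (blue) and each P34 mouse (red), ordered from the largest to the smallest fall in log2 fold change, with values of 0 below the dotted line. In all 45 genes the red points lie below the blue ones, and the triangle of P32 mouse 6 is the lowest blue point in 40.

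**Figure D2:**
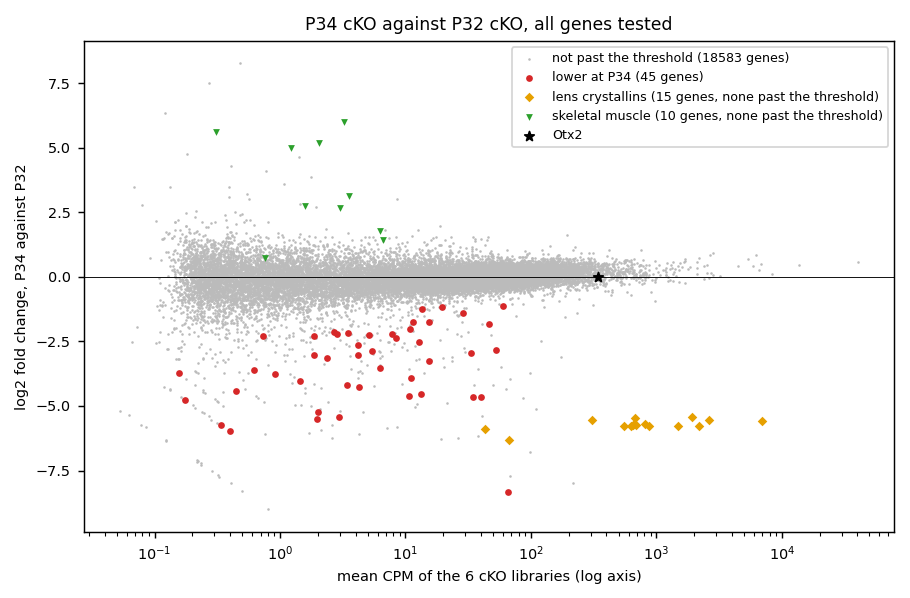
Log2 fold change of P34 against P32 for the 18628 genes tested, against their mean CPM over the 6 libraries (log axis), with 45 genes past the threshold in red. Lens crystallins (diamonds, 15 genes) lie between -6.31 and -5.42 and skeletal muscle genes (triangles, 10 genes) above 0 without passing the threshold, and Otx2 (star) lies at 0.003.

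Of the 17 genes listed for the ciliary body and iris region, 7 were lower, 14 were lower at an unadjusted p of at most 0.05, and their median log2 fold change was -1.26, against -0.02 over all genes tested. Optc (ENSMUSG00000010311; chr1:133897199-133907999, minus strand of GRCm38) encodes opticin, a small leucine-rich proteoglycan that the ciliary epithelium releases into the vitreous. It had 79.3, 113 and 37.7 CPM in P32 mice 4, 5 and 6 and 4.06, 2.47 and 2.64 CPM in P34 mice 7, 8 and 9. Its mean fell from 76.6 ± 37.6 to 3.06 ± 0.871 CPM (SD, n = 3). The log2 fold change was -4.64 with a standard error of 0.42 (adjusted p = 0.000818). Best2, an anion channel of the non-pigmented ciliary epithelium, had 8.31, 6.90 and 2.19 CPM at P32 and 0.249, 0.0735 and 0.0677 CPM at P34 (log2 fold change -5.43, adjusted p = 0.00308). The sulfate transporter Slc13a4 had 12.5, 15.1 and 7.02 CPM at P32 and 1.52, 0.539 and 0.914 CPM at P34 (log2 fold change -3.54). Zic4, a zinc finger transcription factor, had 4.23, 4.14 and 1.68 CPM and 0.442, 0.245 and 0.542 CPM (log2 fold change -3.04). In each of these 4 genes P32 mouse 6 was the lowest of the P32 mice and still lay above every P34 mouse.

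The 3 genes of type IX collagen, Col9a1, Col9a2 and Col9a3, make the 3 chains of one fibril-associated collagen of vitreous and cartilage and fell with log2 fold changes of -1.15, -1.26 and -1.16. Col9a1 had 85, 93.9 and 67.0 CPM at P32 and 33.1, 38.2 and 39.8 CPM at P34 (adjusted p = 0.00388). Among list members that did not pass, log2 fold changes ran up to 0.25 in Mfrp, which had 1.47, 5.01 and 2.22 CPM at P32 and 4.64, 3.06 and 2.67 CPM at P34. Summed over the 17 genes, the list gave 472, 594 and 405 CPM in the P32 mice and 267, 260 and 278 CPM in the P34 mice. The same sum was 559 to 579 CPM in the P30 mice and 368 to 516 CPM at P38. Without P32 mice 4 and 5, 3 of the 17 genes passed (Optc, Best2 and Slc13a4). Optc was the 1 member that passed with only the 6 cKO libraries in the fit, and Optc and Slc13a4 were the 2 with the length or the lens covariate. The list's count was 14 by DESeq2, and leaving out single mice gave 14 genes without P32 mouse 6 and 4 genes without each P34 mouse.

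Of 14 fibulin, fibrillin and latent TGF-β binding protein genes, 4 were lower, 11 were lower at an unadjusted p of at most 0.05, and the median log2 fold change was -0.95. Fbln1 (ENSMUSG00000006369; chr15:85205949-85286535, plus strand of GRCm38), which encodes fibulin-1 of elastic fibers and basement membranes, had 76.7, 89.8 and 31.9 CPM in P32 mice 4, 5 and 6 and 3.73, 1.62 and 2.51 CPM in P34 mice 7, 8 and 9. Its mean fell from 66.1 ± 30.4 to 2.62 ± 1.06 CPM (SD, n = 3). The log2 fold change was -4.66 with a standard error of 0.40 (adjusted p = 0.000672). Ltbp2 (ENSMUSG00000002020; chr12:84783212-84876532, minus strand of GRCm38), a protein of ciliary microfibrils, had 16.9, 32.5 and 13.2 CPM at P32 and 1.57, 1.18 and 1.46 CPM at P34 (log2 fold change -3.90, adjusted p = 0.00106). Its relative Ltbp1, which tethers latent TGF-β in the ECM, had 17.3, 23.1 and 12.9 CPM and 4.42, 5.32 and 6.13 CPM, a log2 fold change of -1.75 (adjusted p = 0.00388). Fbn1, the main fibrillin of these microfibrils, had 31.8, 55.6 and 36.9 CPM and 13.5, 17.5 and 15.8 CPM (log2 fold change -1.41). On a scale that also divides by exonic length (RPKM), Fbn1 and Ltbp2 were at 3.42 and 2.55 at P32, and at 1.29 and 0.171 at P34. Mfap4 (ENSMUSG00000042436; chr11:61485431-61488900, plus strand of GRCm38), a microfibril-associated glycoprotein that is in none of the lists, had 23.1, 28.6 and 9.56 CPM at P32 and 1.13, 0.637 and 0.745 CPM at P34 (log2 fold change -4.60, adjusted p = 0.00140). Against P32 mouse 6 alone, without mice 4 and 5, Fbln1 and Ltbp2 passed and Ltbp1 and Fbn1 did not, as with only the 6 cKO libraries in the fit and with the length or the lens covariate. The list's count was 9 without P32 mouse 6 and 10 by DESeq2.

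Promoter windows of RefSeq on GRCm38.p6 (250 bases before to 50 bases after a start) were searched for TAATCC on either strand, the core letters to which OTX2 and its relative CRX bind. Of all 32851 windows, 2320 (7.06%) held these letters, and so did 3 (7.69%) of the 39 windows of the 30 called genes that the table matched, close to the share of all windows. The 3 genes were Ltbp2, Ltbp1 and Slc6a13. The windows of the related Ltbp pair are shown because both genes fell, with the match in capitals on the gene's own strand.
Ltbp2, chr12:84876442-84876741, minus strand: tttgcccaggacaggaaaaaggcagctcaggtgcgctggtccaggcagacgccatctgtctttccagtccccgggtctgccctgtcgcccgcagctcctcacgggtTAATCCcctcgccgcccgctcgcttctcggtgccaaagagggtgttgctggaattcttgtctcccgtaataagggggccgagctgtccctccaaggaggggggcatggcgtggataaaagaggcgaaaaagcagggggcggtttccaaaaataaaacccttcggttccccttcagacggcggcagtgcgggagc
Ltbp1, chr17:75178531-75178830, plus strand: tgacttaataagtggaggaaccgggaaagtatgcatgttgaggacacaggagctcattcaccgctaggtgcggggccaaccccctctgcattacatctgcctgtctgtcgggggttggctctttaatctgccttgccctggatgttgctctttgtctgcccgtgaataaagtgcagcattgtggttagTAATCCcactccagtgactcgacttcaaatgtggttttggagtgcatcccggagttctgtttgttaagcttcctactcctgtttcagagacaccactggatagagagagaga
The Ltbp1 window lies at the more downstream of its 2 RefSeq starts. A match of letters is a description of the sequence, and binding was not measured.

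Of 10 small leucine-rich proteoglycan genes tested, 4 were lower, 6 were lower and 1 higher at an unadjusted p of at most 0.05, and the median log2 fold change was -2.18. Beside Optc these were Ogn, Fmod and Omd, whose products bind collagen fibrils. Ogn had 36.5, 35.3 and 4.07 CPM in P32 mice 4, 5 and 6 and 0.966, 0.980 and 1.32 CPM in P34 mice 7, 8 and 9 (log2 fold change -4.55, adjusted p = 0.0398), so that P32 mouse 6 lay nearer to the P34 mice than to P32 mice 4 and 5. Fmod had 34, 36.2 and 13.7 CPM at P32 and 2.46, 1.76 and 4.67 CPM at P34 (log2 fold change -3.25). Omd was rare, with 32 counts over the P32 mice and 2 over the P34 mice, a ratio of 15.1 (95% exact interval 3.86 to 130.4, counting error only). The gene with a higher level was Aspn, a collagen-binding member, with 1.26, 1.34 and 1.16 CPM at P32 and 2.37, 1.84 and 1.93 CPM at P34 (log2 fold change 0.71, adjusted p = 0.0949), and DESeq2 called it higher and 5 members lower. Optc was the 1 member that passed without P32 mice 4 and 5, with only the 6 cKO libraries in the fit, and with the length or the lens covariate. The list's count was 6 without P32 mouse 6, 2 without P32 mouse 4, P32 mouse 5 or P34 mouse 9, and 1 without P34 mouse 7 or 8.

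Of 42 collagen genes tested, 5 were lower, 16 were lower and 2 higher at an unadjusted p of at most 0.05, and the median log2 fold change was -0.58. Beside the type IX genes, Col18a1, which encodes a basement membrane collagen and the precursor of endostatin, had 64.7, 105 and 45.9 CPM at P32 and 20.2, 21.5 and 19.9 CPM at P34 (log2 fold change -1.81, adjusted p = 0.0115). Col1a2, a chain of the main fibrillar collagen of sclera and other connective tissue, had 22.4, 31.5 and 17.3 CPM and 6.32, 4.39 and 10.4 CPM (log2 fold change -1.76). The list's lowest log2 fold change was that of Col6a3, -3.41, with 12.6, 21.0 and 0.789 CPM at P32 and 0.884, 1.20 and 1.15 CPM at P34. There the groups overlapped, adjusted p was 0.0963, and P32 mouse 6 was as low as the P34 mice. By edgeR's test 0 collagen genes passed without P32 mice 4 and 5, with only the 6 cKO libraries in the fit, or with the length or the lens covariate, and DESeq2 called 12 lower. The count was 13 without P32 mouse 6, where Col25a1 and Col19a1 were higher, and it was 2 without P32 mouse 4, P32 mouse 5 or P34 mouse 9, and 1 without P34 mouse 7 or 8.

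Among 9 genes of lecticans, link proteins and the interphotoreceptor matrix (IPM), Vcan was lower while the list's median log2 fold change was 0.41. Vcan (ENSMUSG00000021614; chr13:89655312-89742509, minus strand of GRCm38), which encodes the large chondroitin sulfate proteoglycan versican, had 12.2, 18.2 and 12.0 CPM in P32 mice 4, 5 and 6 and 2.93, 2.92 and 2.34 CPM in P34 mice 7, 8 and 9. Its mean fell from 14.2 ± 3.53 to 2.73 ± 0.338 CPM (SD, n = 3). The log2 fold change was -2.37 with a standard error of 0.22 (adjusted p = 0.000977), and P32 mice 4 and 6 were alike. Impg1, a PR-derived proteoglycan of the IPM, had 150.3, 294 and 380.0 CPM at P32 and 598, 544 and 565 CPM at P34 (log2 fold change 1.05, adjusted p = 0.0948). Impg1 and Impg2 were called higher by DESeq2 and by edgeR without P32 mouse 6, and Hapln1, a link protein gene, by DESeq2 alone of these. Matn2, a matrilin that links ECM fibrils, was the 1 lower gene of 11 in its list, with 16.2, 15.7 and 6.28 CPM at P32 and 2.40, 3.11 and 2.74 CPM at P34 (log2 fold change -2.21), and did not pass without P32 mouse 5, any 1 of the P34 mice, or P32 mice 4 and 5 together, nor with only the 6 cKO libraries in the fit or with the length or the lens covariate.

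Of the called genes, 3 encode transporters that are not in the ciliary list. Slc26a4 (ENSMUSG00000020651; chr12:31519827-31559969, minus strand of GRCm38), the anion exchanger pendrin, had 6.15, 9.30 and 4.14 CPM in P32 mice 4, 5 and 6 and 0.387, 0.245 and 0.440 CPM in P34 mice 7, 8 and 9 (log2 fold change -4.20, adjusted p = 0.000672). Slc16a12, of the monocarboxylate transporter family, had 10.6, 10.1 and 3.38 CPM and 0.497, 0.318 and 0.440 CPM (log2 fold change -4.26). Slc6a13, a GABA transporter found in leptomeninges and listed here with fibroblasts, had 23.2, 19.8 and 8.72 CPM and 5.99, 3.82 and 3.05 CPM (log2 fold change -2.0). Against P32 mouse 6 alone, Slc26a4 passed, and Slc16a12 and Slc6a13 did not. Slc16a12 did not pass without any 1 of the P34 mice, and Slc6a13 did not pass without any 1 of the mice other than P32 mouse 6. Neither passed with the length or the lens covariate, nor did Slc6a13 with only the 6 cKO libraries in the fit.

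Among neuropeptides and their binding partners, 2 of 18 genes were lower. Penk, which encodes proenkephalin, had 128, 106 and 42.3 CPM at P32 and 16.0, 11 and 12.2 CPM at P34, a fall from 91.9 ± 44.4 to 13.1 ± 2.60 CPM (SD, n = 3; log2 fold change -2.81, adjusted p = 0.00405). Crhbp, whose product binds corticotropin-releasing hormone, had 29.9, 23.2 and 12.8 CPM and 4.83, 3.26 and 3.22 CPM (log2 fold change -2.54). Of 42 Wnt ligands and modulators, Notum, a secreted enzyme that inactivates Wnt ligands, was lower, with 1.86, 2.46 and 0.813 CPM at P32 and 0.166, 0.0490 and 0.169 CPM at P34. DESeq2 called 9 genes of that list lower and Wnt2b higher, and edgeR called 8 lower and 2 (Wnt2b and Fzd3) higher without P32 mouse 6. Of 17 genes of thyroid hormone and retinoid handling, Dio3, the deiodinase that inactivates thyroid hormone, was lower, with 5.79, 4.57 and 2.37 CPM and 0.525, 0.318 and 0.609 CPM (log2 fold change -3.14). Its neighbor Dio3os, a noncoding RNA transcribed in the opposite direction, had 5.82, 5.4 and 2.93 CPM and 1.24, 0.808 and 1.02 CPM. The strand setting of the authors' counting is not given in the sources used here.

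Of 44 antioxidant and glutathione enzymes, the 2 lower genes encode secreted proteins. Gpx3, the extracellular glutathione peroxidase, had 60.3, 95 and 21.6 CPM at P32 and 9.69, 6.15 and 7.11 CPM at P34 (log2 fold change -2.95, adjusted p = 0.0115). Sod3, the extracellular superoxide dismutase, had 11.6, 12.4 and 4.51 CPM and 1.44, 1.05 and 1.46 CPM (log2 fold change -2.85, adjusted p = 0.00326). In both genes P32 mouse 6 was the lowest P32 mouse and lay above every P34 mouse. Against P32 mouse 6 alone, Sod3 and Penk passed and Gpx3, Crhbp, Notum and Dio3 did not. None of the 6 genes passed in the fit of the 6 cKO libraries alone or with the length or lens covariate by edgeR's test. The antioxidant count was 14 without P32 mouse 6 and 1 without each P34 mouse, and the neuropeptide count was 5 without P32 mouse 6, 0 without P34 mouse 8 and 1 without P34 mouse 9. Notum did not pass without P34 mouse 8.

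Some of the largest fold changes came from rare transcripts or from genes that were either on or off in a mouse. Dsg1a, a desmosomal cadherin of surface epithelia, had 87 counts over the P32 mice and 1 over the P34 mice, a ratio of 82.3 (95% exact interval 14.4 to 3289). The β-defensin gene Defb9 had 72 counts and 1 count, a ratio of 68.1 (interval 11.8 to 2729). 9230105E05Rik, an antisense RNA, had 37 counts and 1 count, a ratio of 35 (interval 5.91 to 1420.1), and since the strand setting of the counting is not given, its counts may hold reads of the gene on the opposite strand. These intervals cover counting error only. Tbx22, a T-box transcription factor, had 0.870, 1.27 and 0.419 CPM at P32 and 0.0276, 0.0735 and 0 CPM at P34, and the carboxylesterase gene Ces1d had 3.15, 3.75 and 1.18 CPM and 0.0552, 0.147 and 0.305 CPM. In both, P32 mouse 6 was the lowest of the P32 mice. These 5 genes did not pass without P32 mice 4 and 5. Tbx22 did not pass without P34 mouse 7 or 9, Ces1d without P34 mouse 8, and Defb9 and 9230105E05Rik without any 1 mouse other than P32 mouse 6.

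The processed pseudogene Gm13394 had the largest fall of the 45, from 125, 135 and 136 CPM in P32 mice 4, 5 and 6 to 0.580, 0.294 and 0.339 CPM in P34 mice 7, 8 and 9 (log2 fold change -8.34, adjusted p = 0.0380). It was at 142, 122 and 0.505 CPM in P30 mice 1, 2 and 3 and at 0.728, 0.493 and 0.475 CPM in P38 mice 10, 11 and 12, so 1 control mouse was as low as the P34 mice. A second processed pseudogene, Gm6969, had 4.32, 3.88 and 3.65 CPM at P32 and 0.110, 0.122 and 0.0677 CPM at P34, but also 3.72, 4.02 and 0.119 CPM in the P30 mice and 5.87, 4.13 and 4.45 CPM in the P38 mice. Rec8, a cohesin subunit of meiosis, had 0.60, 4.73 and 6.33 CPM at P32 and 0.0552, 0.147 and 0.0339 CPM at P34, and was at 0.189, 0.182 and 0.0594 CPM in the P30 mice. The levels of the pseudogenes are uncertain, since reads shared with their parent genes were not counted. Both pseudogenes lost the call without P32 mice 4 and 5 and without any 1 mouse other than P32 mouse 6, and Rec8 lost it without P32 mouse 5 or any 1 of the P34 mice.

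The remaining 9 of the 45 genes are outside the rule for named genes and are given, after their values were seen, to complete the list. Cldn2 and Cldn19, which encode claudins of tight junctions, had log2 fold changes of -3.04 and -2.19. Cldn19 had 7.23, 6.25 and 3.77 CPM at P32 and 1.41, 1.25 and 1.12 CPM at P34. The desmosomal cadherin Dsg2 had 0.870, 1.52 and 1.06 CPM and 0.110, 0.122 and 0.0339 CPM (log2 fold change -3.60). The coagulation factor F5 fell with a log2 fold change of -2.64, the serine protease Tmprss11e with -2.31, the secreted Ism2 with -2.28, the olfactomedin-like Olfml2a with -2.24, the scavenger receptor Colec12 with -2.15 and the noncoding Dio3os with -2.20. In F5 the lowest P32 mouse was mouse 4. All 9 lost the call without P32 mice 4 and 5 and without P34 mouse 8. Without P34 mouse 9 all but Cldn2 lost it, and without P34 mouse 7 all but Cldn2, Cldn19 and F5. Tmprss11e, Olfml2a, Colec12 and Dio3os also lost it without P32 mouse 5, and Olfml2a without P32 mouse 4.

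The levels of these genes at the other 2 ages are given as a description, since the contrast holds neither. In 42 of the 45 genes (93.3%) the 3 P34 mice were below all 9 other libraries, against 12.9% of the 2527 genes in which all P34 values were below all P32 values. Of all genes tested the share was 1.76%. The 45 were picked for clear falls at P34 by a fit of all 12 libraries, so part of this difference was set by the choice. The P32 and P30 ranges overlapped in 38 of the 45, and the P38 and P30 ranges in 22. The shares of all genes tested with such overlaps were not computed, so these counts are no result particular to the 45 genes. Fbln1 was at 79.4, 82.0 and 79.3 CPM in the P30 mice and at 40.8, 54.6 and 37.0 CPM in the P38 mice. Optc was at 99.0, 73.8 and 90.6 CPM in the P30 mice and at 51.6, 72.6 and 34.7 CPM in the P38 mice. For both genes the P38 mice thus lay above the P34 mice and below the P30 mice.

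Markers of neighboring tissues moved with these genes in part of the libraries. All 15 lens crystallin genes were lower at P34 at an unadjusted p of at most 0.05 with a median log2 fold change of -5.75, and 0 passed edgeR's adjusted test, against 13 by DESeq2 and 15 by edgeR without P32 mouse 6. With the length covariate, 1 crystallin gene was lower at that unadjusted p and any fold, and 3 of 9 lens fiber genes were, against 8 in the main fit. Cryaa had 22828, 17450.3 and 384 CPM in P32 mice 4, 5 and 6 and 150.0, 406 and 302 CPM in P34 mice 7, 8 and 9, and the lens fiber channel gene Mip had 654, 624 and 3.99 CPM and 0.663, 1.98 and 2.44 CPM. In 11 of the 15 crystallin genes and 6 of 9 lens fiber genes all P34 values were below all P32 values, against 13.6% of all genes tested. The margin was small, since the crystallin sum was 1224 CPM in P32 mouse 6 and 1153 CPM in P34 mouse 8. The P30 mice spanned 882 to 60280 summed crystallin CPM, and the P38 mice 7162 to 18171. With the mean log2 CPM of the crystallins as a covariate, 8 genes were lower: Fbln1, Ltbp2, Mfap4, Optc, Rec8, Slc13a4, Slc26a4 and Vcan.

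Corneal and surface epithelium genes summed to 86.0 and 79.2 CPM in P32 mice 4 and 5, to 9.66 CPM in P32 mouse 6 and to 7.08 to 9.38 CPM at P34, and Dsg1a was the 1 of 10 that passed. Dsg1a was not called without P32 mice 4 and 5, in the fit of the 6 cKO libraries alone, or with the length or lens covariate. Fibroblast genes of sclera and meninges summed to 477, 445 and 162 CPM at P32 and to 123.1 to 174 CPM at P34, and 2 of 10 (Col1a2 and Slc6a13) passed, against 1 without P34 mouse 9 and 0 without any other mouse but P32 mouse 6. Skeletal muscle genes summed to 6.39 to 12.1 CPM in 5 of the 6 libraries and to 132 CPM in P34 mouse 9. Tnnt3, a fast muscle troponin, had 0.0600, 0.103 and 0.123 CPM at P32 and 0.221, 0 and 19.0 CPM at P34 (adjusted p = 0.158), with its 1 high value in that mouse, and DESeq2 called it higher. The part of these tissues in the 45 calls was not tested beyond the fits without P32 mice 4 and 5 and with the lens covariate.

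**Figure D3:**
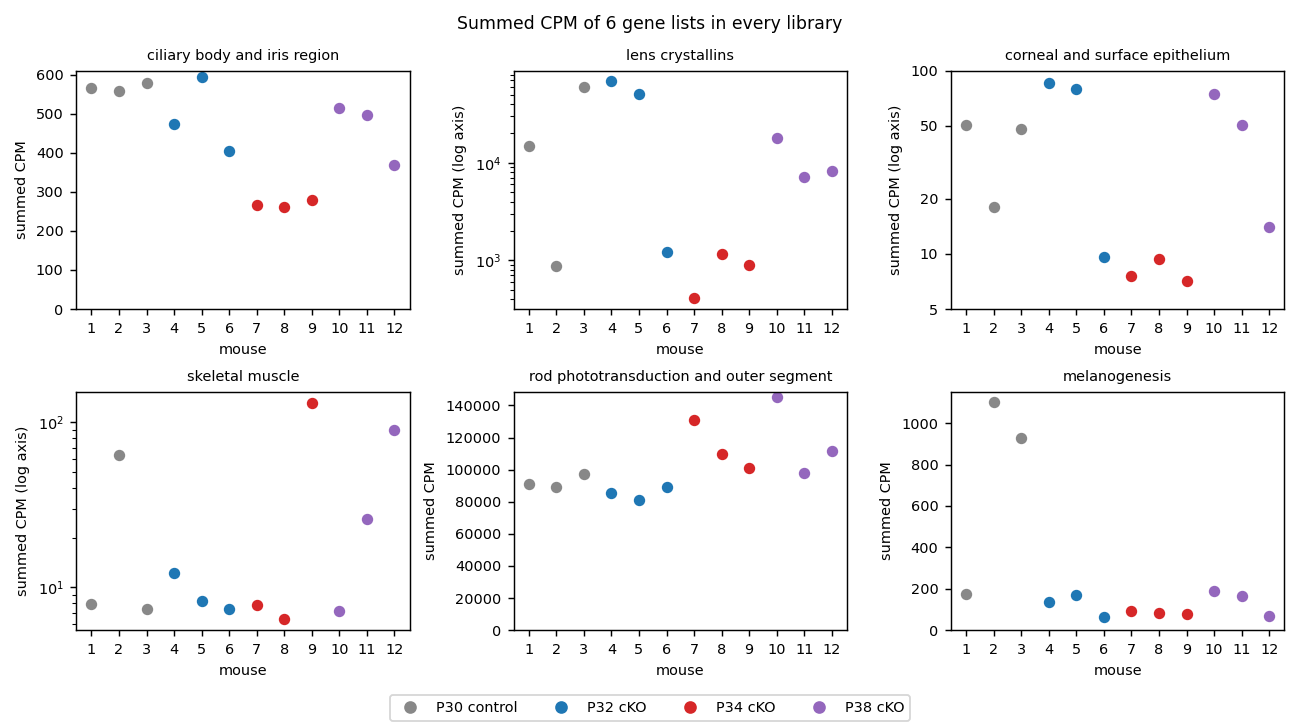
Summed CPM of 6 gene lists in each of the 12 libraries, with P30 mice in gray, P32 in blue, P34 in red and P38 in purple, on log axes for lens, corneal and muscle genes. The 3 P34 mice have the lowest ciliary sums (260 to 278 CPM), P32 mice 4 and 5 have lens sums of 68350 and 50479 CPM, and P34 mouse 9 has the highest muscle sum (132 CPM).

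By edgeR's test at the settings used throughout, 0 genes of the 3 PR lists were called. DESeq2 called 4 rod genes, the cone genes Opn1sw and Slc24a2 and the transcription factor gene Nr2e3 higher and the cone gene Arr3 lower. By edgeR's test, 7 rod and 3 cone genes were higher and Arr3 was lower without P32 mouse 6, and Slc24a2 was higher with sex as a covariate. Of 22 genes of rod phototransduction and outer segments, 0 passed edgeR's adjusted test, 6 were higher at an unadjusted p of at most 0.05 (10 at any fold), and the median log2 fold change was 0.34. Over all genes tested, 1023 were higher at that p under the fold limit, against 185 with the length covariate and 321 with the lens covariate. Gnat1, rod transducin, had 10635, 11234 and 12493 CPM at P32 and 18408, 14766 and 13996 CPM at P34 (log2 fold change 0.46, adjusted p = 0.144), and the groups did not overlap. Rgs9, which speeds transducin's shutoff, had 21.0, 94.1 and 172 CPM at P32 and 255, 338 and 279.8 CPM at P34 (adjusted p = 0.111) and was lowest in P32 mouse 4. Among 12 cone genes 0 passed by edgeR's test, and the S-opsin gene Opn1sw had 417, 469 and 465 CPM and 768, 639 and 726 CPM (adjusted p = 0.0948), with every P34 value above the P32 values. Cone arrestin, Arr3, had the list's lowest log2 fold change, -0.87, with 323, 301 and 316 CPM at P32 and 125, 182 and 210.0 CPM at P34 (adjusted p = 0.0948), and every P34 value was below the P32 values. At an unadjusted p of at most 0.05, 1 cone gene was lower and 2 were higher (3 at any fold), and the list's median log2 fold change was 0.17. The PR transcription factors Crx and Nrl had log2 fold changes of 0.08 and 0.11, with overlapping groups.

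In the inner retina, 0 genes of any list passed by edgeR's test at the settings used throughout. DESeq2 called 2 amacrine, 5 ganglion cell and 3 horizontal cell genes higher, and edgeR called 3, 5 and 3 higher without P32 mouse 6. Median log2 fold changes were -0.04 for 16 bipolar genes, 0.15 for 12 amacrine genes, 0.48 for 13 retinal ganglion cell genes and 0.54 for 6 horizontal cell genes, of which 0, 2, 6 and 4 were higher at an unadjusted p of at most 0.05. At any fold these were 1, 3, 10 and 4, and 3 bipolar genes were lower. With the length covariate, 0 bipolar, 0 amacrine and 0 horizontal cell genes were higher at that p and any fold, and 1 bipolar and 1 amacrine gene were lower. With the lens covariate 0, 0 and 1 were higher. Pou4f2, a ganglion cell factor, had 10.3, 9.54 and 13.5 CPM at P32 and 22.0, 12.4 and 18.9 CPM at P34, and the groups overlapped. Onecut1, a horizontal cell factor, had 0.120, 0.362 and 0.690 CPM and 1.05, 1.03 and 1.39 CPM (adjusted p = 0.0973).

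**Figure D4:**
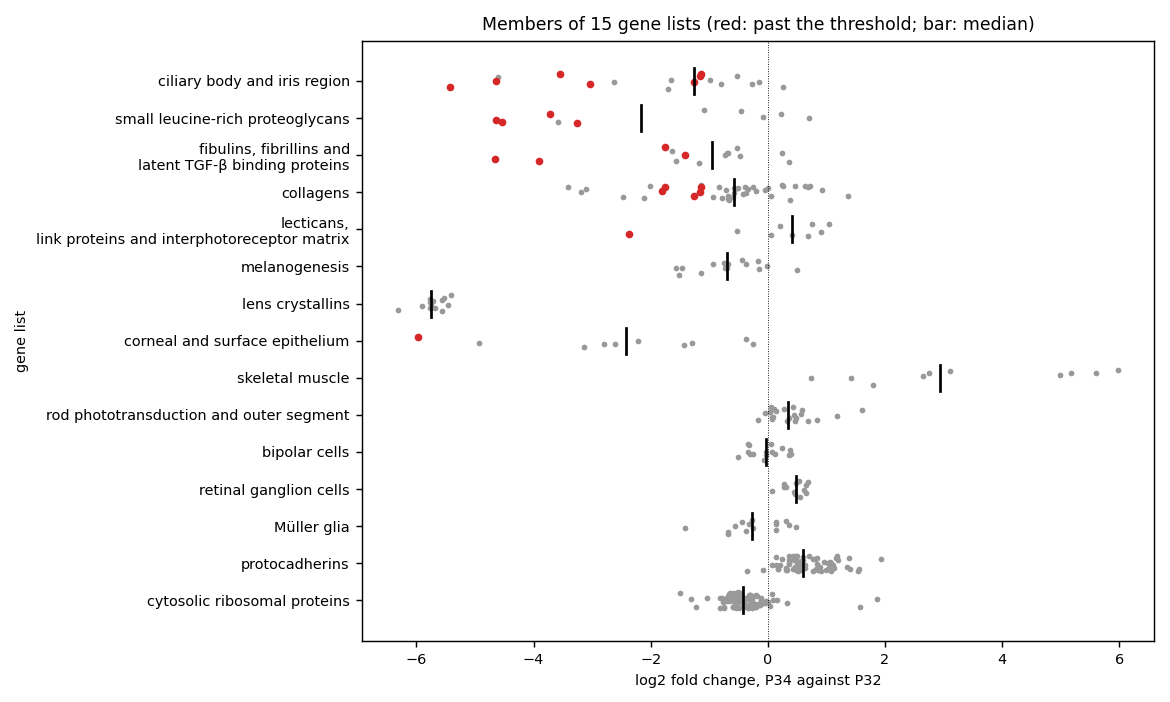
Log2 fold changes of P34 against P32 for the tested members of 15 gene lists, with genes past the threshold in red, other genes in gray and each list's median as a bar. Red points occur in 6 of the 15 lists, all left of 0, while the lens crystallin median lies at -5.75 and the skeletal muscle median at 2.93 with no gene past the threshold.

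Glial, vascular and pigment cell genes held no call by that test either. DESeq2 called 2 Müller glia, 2 endothelial and 1 melanogenesis gene lower, and edgeR called 5, 2 and 1 lower without P32 mouse 6, with the Müller glia gene Aqp4 and the endothelial gene Kdr higher. Of 14 pericyte and smooth muscle genes, 6 were below 0 and 8 above, and both fits called Acta2 lower (log2 fold change -3.23 in the main fit). With the length covariate, 0 genes of these 4 lists were lower or higher at an unadjusted p of at most 0.05 and any fold. Of 15 Müller glia genes, 4 were lower at an unadjusted p of at most 0.05. Vim, an intermediate filament gene that lens cells also express, had 580.0, 305 and 124 CPM at P32 and 131, 105 and 143 CPM at P34 with overlapping groups, while the water channel gene Aqp4 had 74.9, 94.6 and 113 CPM and 126, 134 and 135 CPM (adjusted p = 0.0976). Among genes of reactive gliosis, Serpina3n had 5.16, 25.1 and 3.15 CPM and 31.1, 18.6 and 40.4 CPM, and Timp1 had 2.40, 1.09 and 0.419 CPM and 0.359, 0.294 and 0.237 CPM. Timp1 was called lower by DESeq2 and by edgeR with sex as a covariate or without P32 mouse 6, and Osmr, a cytokine receptor subunit gene, was called higher by DESeq2 and by edgeR without P32 mouse 6. Gfap, named after its values were seen, had 16.4, 19.1 and 15.1 CPM at P32 and 47.4, 22.3 and 44.1 CPM at P34 (log2 fold change 1.17, adjusted p = 0.103). DESeq2 called it higher. Its groups did not overlap, and P34 mouse 8 was near the P32 mice. The 14 endothelial genes had a median log2 fold change of 0.02, 7 below and 7 above 0, with 2 lower and 0 higher at an unadjusted p of at most 0.05 under the fold limit, and Kdr higher without it. They ran from -1.29 in Mfsd2a, a lipid transporter of the blood-brain barrier (adjusted p = 0.198), to 0.49 in Kdr, a VEGF receptor (adjusted p = 0.0973).

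Of 15 melanogenesis genes, which are expressed in the RPE and other pigment cells, 14 had a log2 fold change below 0, with a median of -0.70, and 2 were lower at an unadjusted p of at most 0.05. The exception was Mitf, the pigment cell transcription factor, with a log2 fold change of 0.49 (unadjusted p = 0.0476, adjusted p = 0.182). Pmel, a melanosome fibril protein, had 22.7, 28 and 7.34 CPM at P32 and 10.5, 5.83 and 9.85 CPM at P34, so that the groups overlapped and P32 mouse 6 was within the P34 range. The 12 genes of the RPE list had a median log2 fold change of 0.05, with 0 lower and 0 higher at an unadjusted p of at most 0.05 under the fold limit and 1 lower without it. Of 21 immediate early genes, Egr1 had the lowest log2 fold change, -1.04 (adjusted p = 0.242), with 86.8, 94.6 and 105 CPM at P32 and 66.0, 42.9 and 30.4 CPM at P34.

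Of the lists that held no call by edgeR's test, those of complement and antigen presentation had a median log2 fold change of -0.50, with 6 of 15 genes lower at an unadjusted p of at most 0.05, and microglia and macrophage genes had a median of -0.15. Among ECM lists without a call, medians were -0.27 for 13 laminin and nidogen genes and -0.14 for 33 matrix proteases and inhibitors. Subunits of oxidative phosphorylation encoded in the nucleus were below 0 in 75 of 79 genes (median -0.34), against 9722 of the 18628 genes tested. The 7 mitochondrially encoded genes tested had a median of 0.49. At an unadjusted p of at most 0.05 and any fold, 7 nuclear subunits were lower and 0 higher, but 0 and 18 with the length covariate. Of the mitochondrially encoded genes 4 were higher at that p, and 0 with the length covariate. Without P32 mouse 6, edgeR called 8 genes of complement and antigen presentation and 6 of nuclear oxidative phosphorylation lower and 2 mitochondrially encoded genes higher. Medians were 0.01 for TGF-β and BMP signaling, -0.02 for the circadian clock, -0.03 for apoptosis regulators, -0.02 for glycolysis and 0.22 for cholesterol synthesis and uptake. Members went both ways: 8 TGF-β and BMP genes were lower and 2 higher at an unadjusted p of at most 0.05, and DESeq2 called 7 lower and 2 higher. DESeq2 also called the clock gene Dbp, the apoptosis gene Bax and the glucose transporter gene Slc2a1 lower and the apoptosis genes Xiap and Bmf higher.

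The difference between the ages varied with the exonic length of a gene. In 5 length bins of like size, the median log2 fold change was -0.26 in the bin of the shortest genes (median 1201 bases), -0.16, -0.05 and 0.06 in the next bins and 0.22 in that of the longest (median 9237 bases). P32 mouse 4 departed most from the mean of the 6 libraries, by 0.30 in the shortest and -0.34 in the longest bin on the log2 scale. Ribosomal protein genes, which are short, took 0.679% of counts in P32 mouse 4 and 0.327 to 0.409% in the other 5 libraries, and 73 of 81 had a log2 fold change below 0 (median -0.43). Protocadherins, adhesion proteins with long transcripts, had a log2 fold change above 0 in 65 of 67 genes (median 0.60), and 25 were higher at an unadjusted p of at most 0.05. Neither list held a gene past the adjusted threshold by edgeR's test at the settings used throughout, but without P32 mouse 6 13 ribosomal protein genes were lower and 29 protocadherins higher, and DESeq2 called 6 and 12. At an unadjusted p of at most 0.05 and any fold, 20 ribosomal protein genes were lower and 34 protocadherins higher. With the length covariate these were 2 and 4, while 2 ribosomal protein genes were higher and 1 protocadherin was lower. The 45 called genes were spread over the bins, with 7, 14, 9, 5 and 10 genes from the shortest to the longest. With each library's slope on length as a covariate, 10 genes were lower, among them 9 of the 45.

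**Figure D5:**
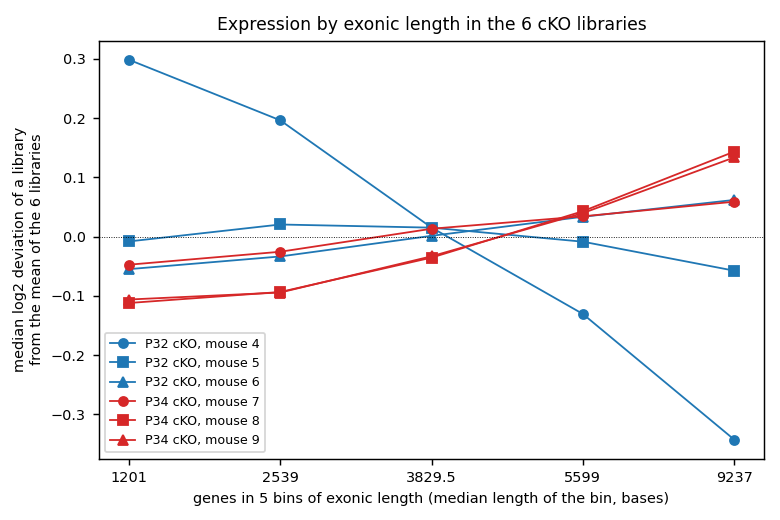
Median log2 deviation of each of the 6 cKO libraries from their mean, in 5 bins of genes ordered by exonic length and labelled by the median length in bases. P32 mouse 4 runs from 0.30 in the shortest to -0.34 in the longest bin, and the other 5 libraries stay between -0.11 and 0.14.

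As no gene was called higher at the settings used throughout, the 5 genes with the lowest unadjusted p among those with a positive log2 fold change are given as values. Iqcg had 11.4, 11.1 and 15.2 CPM at P32 and 20.4, 22.4 and 22.4 CPM at P34 (log2 fold change 0.79, adjusted p = 0.0549), and it was called higher with DESeq2's size factors in edgeR's fit (adjusted p = 0.0490). Ano3 had 11.8, 15.2 and 19.6 CPM and 34.7, 28.8 and 27.1 CPM (adjusted p = 0.0727), and Atrnl1 had 75.5, 94.0 and 113 CPM and 173, 148 and 147 CPM (adjusted p = 0.0764). The log2 fold changes of Ankrd45 and Ahnak2 were 0.63 and 0.67, with adjusted p of 0.0817 and 0.0842. In all 5 genes the P34 mice were above the P32 mice.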

How the data were processed

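RNA of whole retinas was made into stranded mRNA libraries and sequenced (single-end, 50 bp), and reads were mapped to mm10 with STAR 2.5.3a and counted per Ensembl gene with HTSeq 0.6.1p1 by the authors, who deposited whole-number counts without normalization. Reads on no gene (6.53 to 13.7% of those in the 6 libraries) and without a unique position (24.5 to 32.2%) stayed out of library sizes and tests. Of 54146 genes, 54079 were named from GENCODE M21 on GRCm38, and 18628 passed edgeR's filter over the 4 conditions. All 12 libraries entered 1 quasi-likelihood fit in edgeR 4.0.16 (R 4.3.3, TMM scaling, 8 residual degrees of freedom), from which the contrast P34 minus P32 was taken. Benjamini-Hochberg adjustment ran over all genes tested, and a call needed an adjusted p of at most 0.05 with an absolute log2 fold change of 0.5 or more. The standard error is the size of the log2 fold change divided by the square root of F. The fit was tested on simulated data.

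The members and gene lists were chosen with earlier results of these data known. Named genes are Otx2, the 15 largest falls, the 5 positive genes with the lowest p, list members past the threshold, abundant members of lists without calls and the ends of list ranges. Genes named only because an alternative called them were named after their values were seen. Alternatives were DESeq2 1.42.0 or its size factors, other filters and thresholds, a robust fit, the 6 libraries alone, sex as a covariate and leaving out each mouse. Leaving out P32 mice 4 and 5 together and the covariates of length and lens were added after seeing the data. Chi-square per degree of freedom over the pairs of the 6 cKO libraries at P32 and P34 was 19.6 to 323, so none of these 6 was a copy of another.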

Additional observations from a re-analysis of the deposited data

How the results depend on the processing

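In the 18 alternatives, each of the 45 genes kept a lower level at P34 wherever it was tested (42 genes with only the 6 libraries in the fit, 41 with the stricter filter, 45 in the others). Their P34 and P32 values did not overlap, so most alternatives could scarcely change these signs. Against 45 lower and 0 higher genes by edgeR, the counts were 11 lower with only the 6 libraries in the fit (Eif3j2 and Pla2g4e beside 9 of the 45, which were Fbln1, Gm13394, Gm6969, Ltbp2, Mfap4, Optc, Slc16a12, Slc26a4 and Vcan), 843 lower and 579 higher by DESeq2, 1 higher (Iqcg) with DESeq2's size factors, 425 lower and 231 higher without the filter, 630 lower and 407 higher with the adjusted p limit at 0.1, and 87 lower and 5 higher (Plce1, Rbl2, Slc24a2, Cntn4 and A330074K22Rik) with sex as a covariate. With the choices added after seeing the data, the counts were 12 lower without P32 mice 4 and 5, 10 with the length covariate and 8 with the lens covariate, with 0 higher by edgeR in each. Leaving out 1 mouse at a time gave 14 (without P34 mouse 8) to 1310 (without P32 mouse 6) lower genes and 0 to 1416 higher genes, and 13 of the 45 passed in all 6 of these fits. The 3 higher genes without P32 mouse 4 were Cd59a, Bub1b and A330074K22Rik, and the 1 without P32 mouse 5 was Tcof1. The cause of these differences was not tested.

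The log2 fold change of Otx2 changed sign near 0: it was -0.00151 by DESeq2, -0.00139 with its size factors, -0.00929 with the stricter filter, -0.11 without P32 mice 4 and 5, -0.0806 with the length covariate, -0.0507 with the lens covariate, and -0.0745 to 0.061 without 1 mouse. Signs also reversed, without passing the threshold, for Col6a3 (0.45 without P32 mice 4 and 5, 0.062 with the lens covariate), Crx (-0.026 without P32 mice 4 and 5), Cryaa (0.43 with the lens covariate), Mfsd2a (0.24 without P32 mice 4 and 5, 0.071 with the lens covariate), Mfrp (-0.0605 to 0.90 without 1 mouse, -0.69 with the length covariate), Pmel (0.25 without P32 mice 4 and 5) and Vim (0.023 without P32 mice 4 and 5, 0.056 with the lens covariate).

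No paired analysis was possible because the groups share no replicate number. Under each leave-one-out fit the group left with 2 mice keeps the spread estimated over all libraries. Without P32 mice 4 and 5 the P32 group is 1 mouse, which adds nothing to the spread and is assumed to vary like the other groups. Depth limits the rare genes: at 3 counts, 0.0735 to 0.102 CPM, folds of genes with 1 to 3 counts at P34 are known within wide counting intervals.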
